A study of Mus musculus with 6 samples.

Results

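A set of chemokines that keratinocytes can make was followed in mouse cheek skin as 7 genes of the deposited expression table, picked by their symbols out of its 19309 genes: Cxcl1 (NCBI gene 14825), Cxcl2 (20310), Cxcl5 (20311), Cxcl14 (57266), Cxcl16 (66102), Ccl20 (20297) and Ccl27a (20301). All 7 were in the table, and they are picked by symbol alone, but the set was drawn up with earlier results of these data known. RNA had been sequenced from both cheeks of 3 C57BL/6 mice aged 6 to 8 weeks, for which the labels give no genetic change. The AEW group holds the 3 right cheeks, which were wiped for 30 s with equal parts of acetone and ether and then for 30 s with distilled water. The vehicle group holds the 3 left cheeks of the same mice, which were wiped with distilled water for 60 s. Both treatments were given in the morning and the afternoon for 12 days, and whole cheek tissue was taken on day 12. Side of the face and treatment coincide in every mouse and cannot be told apart.

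Chemokines are small secreted proteins that guide leukocytes along a gradient through receptors of the G protein-coupled class. Cxcl1, Cxcl2 and Cxcl5 carry a glutamate-leucine-arginine motif before the CXC cysteines and draw neutrophils through Cxcr2, Ccl20 draws Ccr6-bearing dendritic cells and T cells, and keratinocytes raise them when interleukin 1, interleukin 17 or tumour necrosis factor activates NF-kB. Cxcl14, Cxcl16 and Ccl27a are made by resting skin: Cxcl14 has no settled receptor, Cxcl16 sits in the membrane until it is shed and binds Cxcr6, and Ccl27a holds Ccr10-bearing T cells in the skin.

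Start regions are shown first, since NF-kB is known to switch on the inducible genes through sites near their start. RefSeq start regions, from 250 bases before to 50 bases after an annotated start, were found for 5 of the 7 genes (build GRCm38.p6, older than the GRCm39 build named for the deposited values). Capitals mark matches on either strand to a general NF-kB motif (GGGA, then 4 bases of any kind, then CC) and to TGANTCA, an AP-1 motif.
Cxcl1, chr5:90890995-90891294, plus strand: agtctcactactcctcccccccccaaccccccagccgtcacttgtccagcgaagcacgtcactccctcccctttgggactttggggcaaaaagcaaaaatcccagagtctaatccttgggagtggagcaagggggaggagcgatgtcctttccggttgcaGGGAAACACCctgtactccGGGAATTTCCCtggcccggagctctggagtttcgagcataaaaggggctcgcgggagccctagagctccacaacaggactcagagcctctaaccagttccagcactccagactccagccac
Cxcl2, chr5:90903649-90903948, plus strand: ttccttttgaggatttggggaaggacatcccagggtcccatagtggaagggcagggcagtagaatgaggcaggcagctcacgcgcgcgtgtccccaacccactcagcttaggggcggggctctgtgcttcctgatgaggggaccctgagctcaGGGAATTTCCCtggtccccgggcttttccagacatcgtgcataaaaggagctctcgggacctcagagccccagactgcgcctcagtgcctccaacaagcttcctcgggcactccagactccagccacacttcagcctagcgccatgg
Ccl20, chr1:83116516-83116815, plus strand: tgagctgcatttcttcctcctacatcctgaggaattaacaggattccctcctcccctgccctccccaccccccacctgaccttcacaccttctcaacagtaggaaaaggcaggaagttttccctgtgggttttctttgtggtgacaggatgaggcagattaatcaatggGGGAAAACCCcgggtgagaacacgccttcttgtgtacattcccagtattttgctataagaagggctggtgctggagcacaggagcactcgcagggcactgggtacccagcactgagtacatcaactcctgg
Ccl27a, chr4:41770163-41770462, minus strand: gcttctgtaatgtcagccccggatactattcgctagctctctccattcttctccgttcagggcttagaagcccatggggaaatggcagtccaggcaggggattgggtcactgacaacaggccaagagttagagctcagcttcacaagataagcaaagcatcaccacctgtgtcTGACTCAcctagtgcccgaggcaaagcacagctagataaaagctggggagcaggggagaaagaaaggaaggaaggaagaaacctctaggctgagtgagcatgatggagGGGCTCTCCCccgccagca

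The same NF-kB letters, GGGAATTTCC, stood at base -71 in Cxcl1 and at base -97 in Cxcl2, counted from the annotated start. In both genes the match overlapped a match on the opposite strand. Cxcl1 held a further match at base -90, and Ccl20 held 1 at base -81. Of all 32851 RefSeq start regions of this length, 20.7% held at least 1 NF-kB match and 3.66% at least 2. Overlapping matches on opposite strands count as 2 there, so the 3.66% includes regions with a single such site, as in Cxcl2. The 3 annotated starts of Ccl27a held 1 NF-kB match each. In the start shown it lay at base 32, after the annotated start. The windows of the other starts overlap, and their matches, at bases -144 and -69, are the same GGGAGGAACC site. The start shown also held an AP-1 match at base -77, a motif found in 7.81% of start regions. Cxcl14 held neither motif in its window. Which start the skin used is not shown by these values.

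Adenine- and uracil-rich stretches in the 3′ UTR are known to shorten the life of chemokine messenger RNA through binding proteins such as Zfp36. The heptamer TATTTAT, written as DNA, occurred 6 times in the 3′ UTR of Cxcl1 and 7 times in that of Cxcl2, in the GENCODE M21 transcript with the longest 3′ UTR. It occurred once each in Cxcl5 and Ccl20 and 0 times in Cxcl14, Cxcl16 and Ccl27a. The 3′ UTR of Ccl27a held only 31 bases, too few to compare with the 592 of Cxcl1 and 1494 of Cxcl2. Among 20987 protein-coding genes, 27.5% held it at least once and 4.11% held 3 or more. The densest stretches of Cxcl1 and Cxcl2 are given here with the heptamers in capitals.
Cxcl1: ggtccTATTTATTTATgTATTTATTTAT
Cxcl2: tTATTTATTTATctatgTATTTATTTAT

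The libraries held 18449145 to 19506462 estimated counts each. Epidermal markers were present in all of them: 6 basal keratinocyte genes summed to 11249 to 12918 CPM (counts scaled to a common library size, the unit of all levels per library unless TPM is named) in AEW skin and 6968 to 11098 CPM in vehicle skin. The 7 suprabasal genes summed to 10365 to 19163 CPM in AEW skin and 6796 to 9660 CPM in vehicle skin, and 3 of them rose. Not every gene went with these sums. Log2 fold changes were negative for Krt15 (-0.76) and Col17a1 (-0.097) of the basal list and for Lor (-0.32) and Dsg1a (-0.069) of the suprabasal list. None of these passed the threshold, and all other genes of the lists had positive values. Skeletal muscle markers were lower in AEW skin, at 11798 to 17025 CPM against 27468 to 41320 CPM in vehicle skin, and 6 of 8 fell. Over all tested genes, 4.85% rose and 6.8% fell. The part of these cell types in the differences between groups was not tested, nor was which cells made the chemokine transcripts. Hair shaft and inner root sheath genes summed to 1966, 11 and 471 CPM in AEW replicates 1 to 3, against 257 to 296 CPM in vehicle skin. AEW replicate 1 thus lay above every vehicle library and AEW replicate 2 below every one. AEW replicate 1 also had more fibroblast marker CPM (8788, against 5949 and 5265 in AEW replicates 2 and 3 and 5164 to 6959 in vehicle skin). Its macrophage markers summed to 748 CPM, against 1845 and 1352 CPM in AEW replicates 2 and 3 and 714 to 1746 CPM in vehicle skin. In such whole-tissue samples, fewer cells of a type and less RNA per cell cannot be told apart. Replicate numbers are the mouse numbers of the sample titles. The deposited column names number mice 1, 2 and 3 as 2, 3 and 4.

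Of the 7 chemokines, 3 rose in AEW skin (Cxcl1, Ccl20 and Cxcl16) and 1 fell (Ccl27a) by the quasi-likelihood test of edgeR, at a Benjamini-Hochberg adjusted p below 0.05. Cxcl2 and Cxcl14 did not pass the test, and Cxcl5 had too few counts to be tested. Over all 15109 tested genes, 11.6% were called, 4.85% as higher and 6.8% as lower in AEW skin. When mouse was added as a blocking factor, 2 of these chemokines (Cxcl1 and Ccl20) were higher and 0 lower, beside 1.99% higher and 3.89% lower of all tested genes and 5.88% called in all. These counts depended on single libraries: between 0 and 3 were higher and 0 or 1 lower when 1 library was left out. In the 4 called genes the AEW and vehicle libraries did not overlap, as was so for 36.9% of all tested genes.

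**Figure D1:**
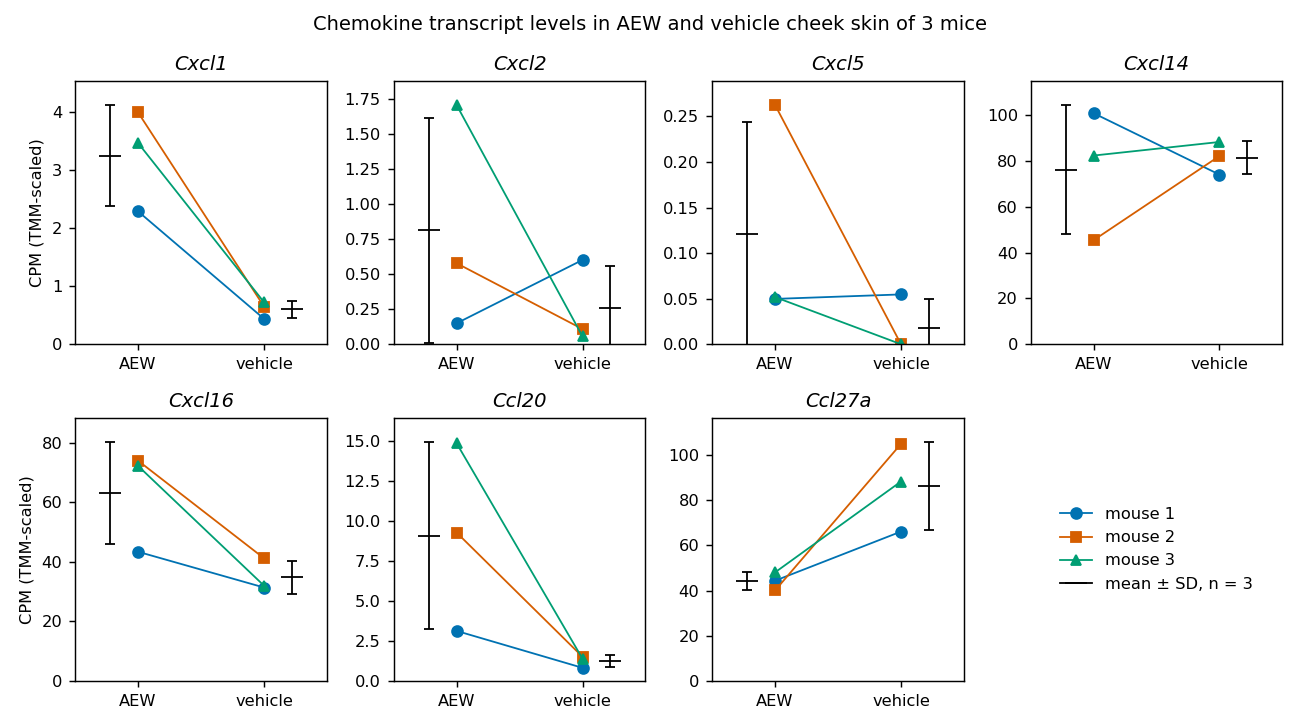
TMM-scaled CPM (vertical axis, linear, from 0) of each of the 7 chemokines in the AEW and vehicle cheek of each mouse, with lines joining the cheeks of a mouse and black bars for mean ± SD (n = 3; bars that would pass below 0 are cut at 0). Cxcl1, Ccl20 and Cxcl16 were higher and Ccl27a lower in the AEW cheek of all 3 mice, whereas lines cross for Cxcl2 and Cxcl14.

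Cxcl1, the neutrophil attractant also called KC, stood at 2.29, 3.99 and 3.46 CPM in AEW replicates 1 to 3, against 0.437, 0.648 and 0.723 CPM in vehicle replicates 1 to 3. These levels rested on 46, 76 and 67 counts in AEW skin and 8, 12 and 13 counts in vehicle skin. Every AEW library was above every vehicle library. The difference was 2.42 ± 0.33 on the log2 scale (SE; 95% interval 1.63 to 3.20; adjusted p = 0.0121 in edgeR). Within mice, AEW was 5.23-fold vehicle in mouse 1, 6.16-fold in mouse 2 and 4.79-fold in mouse 3, with 95% exact binomial intervals that overlap and cover counting error alone. Without vehicle replicate 1 or vehicle replicate 3 the adjusted p was 0.0554 or 0.0584 (edgeR), with log2 fold changes of 2.23 and 2.56.

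Cxcl2, a relative of Cxcl1 made by keratinocytes and macrophages, had 3, 11.3 and 33.2 estimated counts in AEW replicates 1 to 3 and 11, 2 and 1 in vehicle replicates 1 to 3. The groups overlapped, with vehicle replicate 1 above AEW replicate 1. The log2 fold change was 1.64 with a 95% interval from -0.76 to 4.03 (adjusted p = 0.319 in edgeR). Without 1 library it ran from 0.48 (without AEW replicate 3) to 3.20 (without vehicle replicate 1), and none of these 6 fits passed the threshold. Cxcl2 and its neighbour Cxcl3, another neutrophil attractant, can share reads, and their summed estimated counts were 3, 17 and 46 in AEW skin and 11, 3 and 1 in vehicle skin. Cxcl5, the third neutrophil attractant, had 1, 5 and 1 counts in AEW skin and 1, 0 and 0 in vehicle skin, too few to give a direction. A count of 0 allows up to 3 counts, or 0.162 to 0.167 CPM in those 2 libraries.

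Ccl20, which draws Ccr6-bearing cells to epithelia, varied most in size among the called genes. It had 3.13, 9.29 and 14.9 CPM in AEW replicates 1 to 3, against 0.819, 1.51 and 1.39 CPM in vehicle replicates 1 to 3. The lowest AEW library, replicate 1, was above all vehicle libraries. Its AEW minus vehicle difference was 2.87 ± 0.58 on the log2 scale (SE; 95% interval 1.5 to 4.23; adjusted p = 0.0286 in edgeR). Within mice, AEW was 3.82-fold vehicle in mouse 1 (2.15 to 7.23), 6.14-fold in mouse 2 (4.11 to 9.51) and 10.7-fold in mouse 3 (7.11 to 16.8, 95% exact binomial intervals). The intervals of mice 1 and 3 just overlapped.

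The call of Ccl20 held without AEW replicate 1 (adjusted p = 0.00373 in edgeR) and was lost without any 1 of the other libraries. Without AEW replicate 2 or 3 the adjusted p was 0.0673 or 0.0557, and without vehicle replicates 1, 2 or 3 it was 0.105, 0.0615 or 0.122 (edgeR). The log2 fold change stayed between 2.32 and 3.27 in these 6 fits.

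Cxcl16, the membrane-held ligand of Cxcr6, stood at 43.4, 73.9 and 72.2 CPM in AEW replicates 1 to 3, against 31.4, 41.2 and 32.0 CPM in vehicle replicates 1 to 3. The lowest AEW library, replicate 1, lay just above the highest vehicle library, replicate 2. On the log2 scale AEW was higher by 0.86 ± 0.22 (SE; adjusted p = 0.0492 in edgeR), and by 0.83 in the mouse-blocked fit (adjusted p = 0.0535 in edgeR). AEW was 1.38-fold vehicle in mouse 1, 1.80-fold in mouse 2 and 2.26-fold in mouse 3. Leaving out AEW replicate 2 or 3 gave adjusted p-values of 0.12 or 0.115, and leaving out vehicle replicates 1, 2 or 3 gave 0.159, 0.0651 or 0.183 (edgeR). The call was kept without AEW replicate 1 (adjusted p = 0.00669 in edgeR).

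Ccl27a, the chemokine of resting keratinocytes that Ccr10 binds, stood at 44.4, 40.1 and 48.1 CPM in AEW replicates 1 to 3, against 66.2, 105 and 88.3 CPM in vehicle replicates 1 to 3. All 3 AEW libraries lay below all 3 vehicle libraries, and they were closer to each other than the vehicle libraries were. The log2 ratio was -0.97 ± 0.17 (SE; 95% interval -1.38 to -0.56; adjusted p = 0.0207 in edgeR), and the blocked fit gave -0.95 (adjusted p = 0.0534). AEW was 0.671-fold vehicle in mouse 1, 0.382-fold in mouse 2 and 0.544-fold in mouse 3. The adjusted p was 0.0621 without AEW replicate 2 and 0.0956 without vehicle replicate 3 (edgeR).

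Ccl27a has near copies in the mouse genome, and its estimated counts were fractional, so reads may have been divided among them. Ccl27b fell by 1.00 on the log2 scale (adjusted p = 0.0297) and the predicted copy Gm13306 fell by 1.31 (adjusted p = 0.0328, and 0.0952 in the blocked fit; edgeR). Both copies kept their call without AEW replicate 1 and lost it without any 1 of the other libraries, with adjusted p-values from 0.0535 to 0.116 for Ccl27b and 0.0553 to 0.119 for Gm13306. Summed, the 3 copies held 1510, 1378 and 1699 estimated counts in AEW skin and 2276, 3722 and 2893 in vehicle skin. The sum had a log2 fold change of -1.05 (adjusted p = 0.0193 in edgeR). Ccl27a took 54.7% to 59.1% of the summed counts in AEW skin and 52.2% to 54.9% in vehicle skin. The other 3 tested genes listed as copies or neighbours did not pass the test. Their log2 fold changes were 0.33 for Il11ra1 (adjusted p = 0.147), -0.60 for Il11ra2 (adjusted p = 0.0952) and -0.022 for Gm2564 (adjusted p = 0.973; edgeR), and the groups did not overlap for Il11ra2.

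Cxcl14, a chemokine that epithelia make at rest, stood at 101, 45.4 and 82.4 CPM in AEW replicates 1 to 3, against 74.1, 82.2 and 88.3 CPM in vehicle replicates 1 to 3. The AEW libraries lay on both sides of the vehicle libraries. The log2 fold change was -0.097 with a 95% interval from -0.72 to 0.53 (adjusted p = 0.836 in edgeR). The interval covered neither the fold change of Cxcl16 nor that of Ccl27a. Without AEW replicate 2 the sign turned, at a log2 fold change of 0.17 (adjusted p = 0.477 in edgeR). AEW was 1.36-fold vehicle in mouse 1, 0.552-fold in mouse 2 and 0.933-fold in mouse 3. The AEW libraries had the same order in hair shaft and inner root sheath genes, highest in replicate 1 (1966 CPM) and lowest in replicate 2 (11 CPM), and the part of hair follicles in this spread was not tested.

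**Figure D2:**
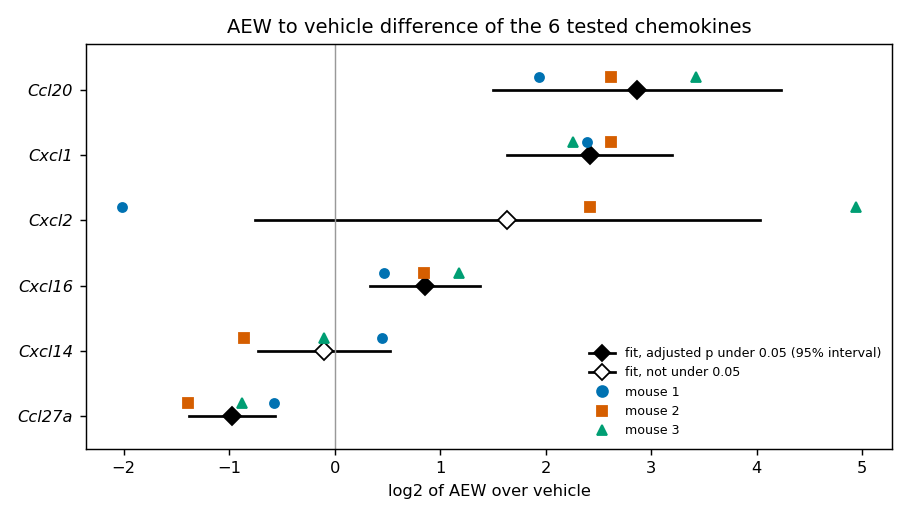
Log2 of AEW over vehicle (horizontal axis) for the 6 tested chemokines: diamonds and lines are the fit over all 6 libraries with its 95% interval, coloured points are single mice. Ccl20 (2.87), Cxcl1 (2.42) and Cxcl16 (0.86) lie right of 0 in all 3 mice, Ccl27a (-0.97) lies left of 0 in all 3, and Cxcl2 and Cxcl14 fall on both sides.

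Levels of different genes were compared on the deposited TPM values, which scale for gene length. In AEW skin the order of the mean levels was Ccl27a (195 ± 26.8 TPM), Cxcl16 (72.9 ± 18.3), Cxcl14 (72.5 ± 29.3), Ccl20 (20.3 ± 13.4), Cxcl1 (5.97 ± 1.40), Cxcl2 (1.34 ± 1.35) and Cxcl5 (0.123 ± 0.118; SD, n = 3 each). In vehicle skin it was Ccl27a (370 ± 90.4 TPM), Cxcl14 (73.8 ± 7.30), Cxcl16 (38.9 ± 6.74), Ccl20 (2.67 ± 0.83), Cxcl1 (1.07 ± 0.27), Cxcl2 (0.393 ± 0.458) and Cxcl5 (0.0167 ± 0.0289). The ranges of Cxcl16 and Cxcl14 overlapped in AEW skin but not in vehicle skin. Those of Cxcl2 and Cxcl5 overlapped in AEW skin, and those of Cxcl1 and Cxcl2 in vehicle skin. All other neighbours in the order were separate in range.

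By TPM, Ccl27a thus made up most of the chemokine transcripts of this set in both groups. It held 51.1% to 55.4% of the summed TPM of the 7 genes in AEW skin and 72.7% to 78.3% in vehicle skin. Cxcl16 held 14.3% to 25.7% in AEW skin and 7.19% to 9.04% in vehicle skin. Ccl20 held 1.99% to 7.97% in AEW skin and 0.455% to 0.601% in vehicle skin. The summed level was 315 to 427 TPM in AEW skin and 380 to 584 TPM in vehicle skin, so these ranges overlapped. The lead of Ccl27a rests on scaling for length. In counts summed over AEW libraries it had 2586, below Cxcl14 (4489) and Cxcl16 (3676). Over vehicle libraries it had 4744, beside 4467 for Cxcl14.

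**Figure D3:**
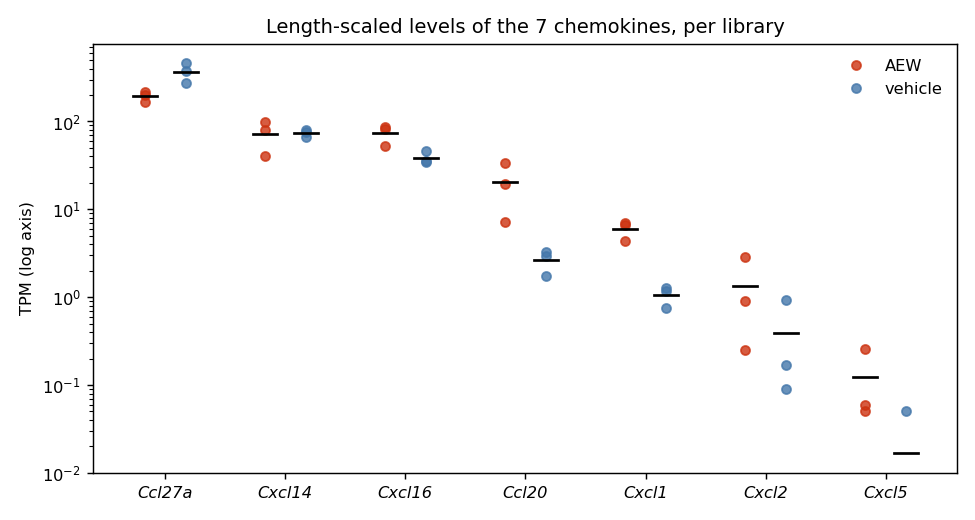
Deposited TPM (vertical log axis) of the 7 chemokines in order of their vehicle mean, with a point per library and a black bar for the mean of 3 libraries; values of 0 (Cxcl5 in 2 vehicle libraries) cannot be drawn on a log axis. Ccl27a is highest in both groups, and the gap between Ccl20 or Cxcl1 and the resting chemokines is narrower in AEW skin.

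Of the 6 receptors listed for these chemokines 5 could be tested, of which 1 rose and 1 fell. Of all tested genes, 4.85% were called higher and 6.8% lower. Cxcr2, the receptor for Cxcl1, Cxcl2 and Cxcl5, stood at 6.46, 19.6 and 15.6 CPM in AEW replicates 1 to 3, against 3.39, 5.13 and 3.34 CPM in vehicle replicates 1 to 3. AEW libraries were all higher, with a log2 ratio of 1.81 ± 0.41 (SE, adjusted p = 0.0377 in edgeR). Without AEW replicate 1 the call held (adjusted p = 0.00461), and without any 1 other library the adjusted p ran from 0.0611 to 0.157 (edgeR). Ackr1, a decoy receptor on venules, fell to 12.5 ± 1.48 CPM in AEW skin, against 20.5 ± 0.99 CPM in vehicle skin (log2 fold change -0.72, adjusted p = 0.0181). Its adjusted p was 0.0585 without AEW replicate 2, 0.0725 without vehicle replicate 1 and 0.098 without vehicle replicate 3 (edgeR), and 5 endothelial markers summed to 232 to 279 CPM in AEW skin and 295 to 411 CPM in vehicle skin.

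The receptors for the other chemokines gave no call. Cxcr6, for Cxcl16, had 4.94 ± 0.67 CPM in AEW skin and 5.41 ± 0.79 CPM in vehicle skin, and Ccr6, for Ccl20, had 1.88 ± 0.97 and 1.86 ± 0.50 CPM in AEW and vehicle skin. Ccr10, for Ccl27a, had 0.361 ± 0.189 CPM in AEW skin and 0.694 ± 0.073 CPM in vehicle skin (SD, n = 3; log2 fold change -0.93, adjusted p = 0.182 in edgeR). Cxcr1 had 7 counts over the AEW libraries and 0 over the vehicle libraries. The 6 T cell markers measured summed to 27.1 to 33.6 CPM in AEW skin and 36.7 to 38.9 CPM in vehicle skin. Of these markers 1 fell, Cd3g, with a mean of 12.5 CPM in AEW skin and 20.9 CPM in vehicle skin (adjusted p = 0.0216 in edgeR). The others did not pass the test and differed in direction. Log2 fold changes were -0.60 for Cd3d and -0.76 for Cd3e, but 0.83 for Cd4, 0.48 for Cd8a and 0.072 for Lck. The lower sum thus rests largely on Cd3g, and the number of T cells was not tested.

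Neutrophil markers were scarce. The list of 9 summed to 11.1 to 36.9 CPM in AEW skin and 7.28 to 10.9 CPM in vehicle skin, and Cxcr2 and Csf3r, the receptor for granulocyte colony-stimulating factor, were its tested members. Cxcr2 itself gave 6.46 to 19.6 CPM of this sum in AEW skin and 3.34 to 5.13 CPM in vehicle skin. The sum is therefore not separate from the Cxcr2 difference. Csf3r had 11.1 ± 6.43 CPM in AEW skin and 4.50 ± 1.33 CPM in vehicle skin (SD, n = 3; adjusted p = 0.141 in edgeR). The defining marker Ly6g had 24 counts over the AEW libraries and 4 over the vehicle libraries, Retnlg had 21 and 5, and Elane had 4 and 18. Retnlg had 0 counts in AEW replicate 1. Ngp had 0, 0 and 2 counts in AEW replicates 1 to 3 and 0, 11 and 0 in vehicle replicates 1 to 3. In the same order, Camp had 4, 2 and 2 and then 5, 2 and 1. Ltf had 1, 6 and 5 and then 0, 3 and 1, and Mmp8 had 3, 13 and 19 and then 5, 6 and 2. None of the 9 was at 0 in all libraries. Their part in the Cxcr2 difference was not tested.

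Cytokines known to induce these chemokines, with their receptors and the receptor antagonist genes Il1rn and Il1f5, included 3 higher and 0 lower of 17 tested. They were Il1f6, Il1f8 and Il1rl2, beside 4.85% of all tested genes called higher. Il1f6, the interleukin 36 alpha gene, stood at 17.1, 51.1 and 31.9 CPM in AEW replicates 1 to 3, against 6.17, 13.7 and 8.78 CPM in vehicle replicates 1 to 3, with no overlap (log2 fold change 1.80, adjusted p = 0.0442). Il1f8, interleukin 36 beta, had a log2 fold change of 1.38 (adjusted p = 0.0473, and 0.0747 in the blocked fit). Their receptor Il1rl2 had one of 0.58 (adjusted p = 0.049, and 0.0759 in the blocked fit; edgeR). Each of the 3 was called without AEW replicate 1 and missed the threshold without any 1 other library, at adjusted p-values from 0.0542 to 0.187. Named after their values were seen, Il1f5, the interleukin 36 receptor antagonist gene, and Il1f9, interleukin 36 gamma, did not pass, at log2 fold changes of 0.96 and 0.71 (adjusted p = 0.101 and 0.13 in edgeR). The median log2 fold change of the list was 0.42, beside 0.014 over all tested genes. Transcripts of interleukin 17 itself were at the limit of detection, with 3 counts of Il17a over the AEW libraries and 0 over the vehicle libraries.

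Among 24 genes of NF-kB signalling and chemokine messenger RNA stability 1 rose and 0 fell, with a median log2 fold change of 0.16. A single call among 24 is near the 4.85% of all tested genes called higher. It was Traf6. This gene, an adaptor shared by interleukin 1 and interleukin 17 receptors, had 51.8 ± 4.58 CPM in AEW skin and 39.4 ± 2.80 CPM in vehicle skin (SD, n = 3; log2 fold change 0.40, adjusted p = 0.0482, and 0.0571 in the blocked fit; edgeR). It kept that call without AEW replicate 1 and lost it without any 1 other library (adjusted p from 0.0664 to 0.175). Of 7 tested proteases that shed or trim chemokines, 0 were called by edgeR or DESeq2, and 0 had an unadjusted p under 0.05. Adam17, one of the sheddases known for Cxcl16, had a log2 fold change of 0.22 (adjusted p = 0.361, and 0.0398 without AEW replicate 1), and Mmp2 had one of 0.31 (adjusted p = 0.216). Mmp9, the gelatinase named in the series title and known to trim mouse Cxcl5, had 8.88 ± 4.63 CPM in AEW skin and 7.73 ± 1.51 CPM in vehicle skin (adjusted p = 0.785 in edgeR). The mice differed, with an AEW to vehicle ratio of 0.407 for mouse 1, 1.83 for mouse 2 and 1.44 for mouse 3.

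Other chemokine genes of skin gave 0 calls among 24 tested in edgeR, where 0 were higher and 4 lower at an unadjusted p under 0.05, and DESeq2 called 0 higher and 3 lower. Nearest to the threshold were Xcl1, made by T cells and natural killer cells, at a log2 fold change of -1.05 (adjusted p = 0.0512), and Ccl11, the eotaxin gene, at -0.84 (adjusted p = 0.0686). Xcl1 was called without AEW replicate 1 (adjusted p = 0.0267 in edgeR). The median of the list was 0.086, and 15 of its members had a positive and 9 a negative log2 fold change.

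**Figure D4:**
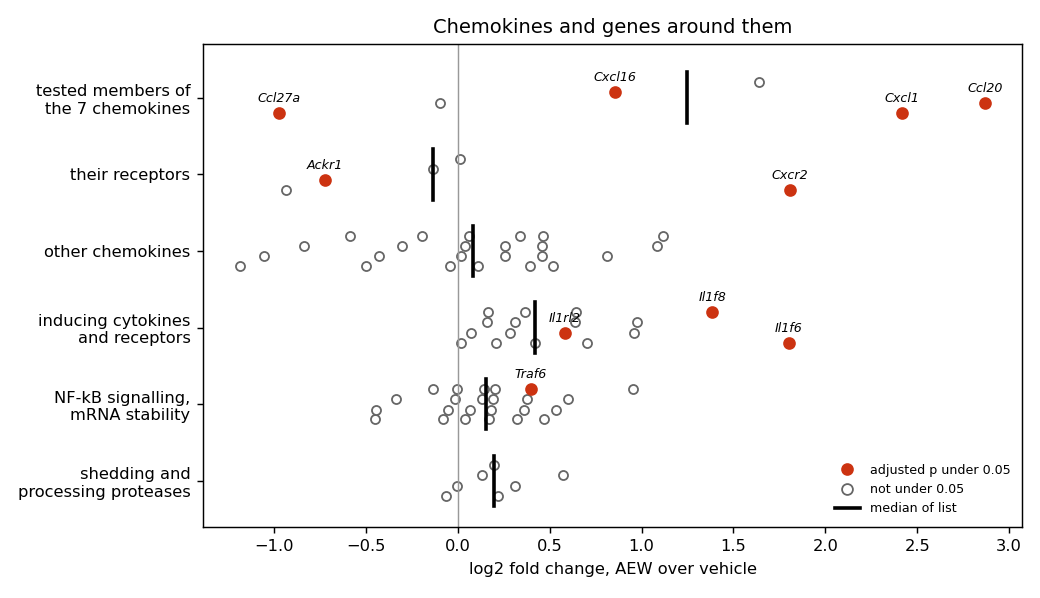
Log2 fold change of AEW over vehicle (horizontal axis) of each tested gene, by list, with filled red points for an adjusted p under 0.05 and a black bar for the list's median. Cxcl1 and Ccl20 lie furthest right, Cxcr2, Il1f6 and Il1f8 next among the called genes, and no called gene stands in the rows of other chemokines and proteases.

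For each called chemokine, the 3 genes with the most similar pattern over the 6 libraries were taken, by the root mean square difference of their centred log2 CPM (prior count 2). Candidates were 13385 genes whose log2 CPM averaged 1 or more. Predicted models (symbols of Gm or LOC with a number, or ending in Rik) were left out, so Gm13306 could not be listed. Nearest to Cxcl1 were Nrg1, the neuregulin 1 gene, at a difference of 0.117, then Casp14, a caspase of cornification, and Krt1, a suprabasal keratin, at 0.23 and 0.252. Nrg1 had 3.30 ± 1.11 CPM in AEW skin and 0.639 ± 0.0886 CPM in vehicle skin (SD, n = 3). The median difference from Cxcl1 over all candidates was 1.16. Nearest to Cxcl16 were Epn3, Garem1 and Kctd11, at 0.066 to 0.0816 with a median over candidates of 0.536. Ccl20 had no neighbour as close: Klk9, an epidermal kallikrein, Chil1, a chitinase-like protein gene, and Teddm3 stood at 0.484 to 0.505, with a median of 1.47.

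Nearest to Ccl27a were Krt15, a basal keratin, at 0.119, Avpr1a, a vasopressin receptor gene, at 0.123, and Cd96, a receptor of T cells and natural killer cells, at 0.127, with a median of 0.546 over candidates. Krt15 had 1211 ± 173 CPM in AEW skin and 2044 ± 447 CPM in vehicle skin (SD, n = 3; log2 fold change -0.76, adjusted p = 0.0506 in edgeR), and Avpr1a fell by 0.94 (adjusted p = 0.00902). These likenesses rest on 6 libraries from 3 mice.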

How the data were processed

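Per the file headers, each library has 3 deposited values a gene: an estimated count, an FPKM and a TPM. The authors' group means and the deposited FPKM were not used. The submitters' processing notes name HISAT and GRCm39. Counting tool, annotation and strand use were not given in the sources read here, which leaves reads of a gene and an antisense partner inseparable. Reads were single ends of 50 bases from poly(A) RNA, per the labels' protocols.

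Estimated counts were rounded, and 15109 genes passed filterByExpr (minimum count 10). They were scaled by TMM and tested with the quasi-likelihood test of edgeR 4.0.16 (R 4.3.3) on group alone, Benjamini-Hochberg adjusted over all tested genes at 0.05. Cxcl1 passed the filter through its AEW libraries. Both cheeks of a mouse share its number, so numbers pair the libraries by animal. Deviations from group means correlated at -0.244, -0.165 and -0.246 within mice, so the unpaired p-values can be too small, and a mouse-blocked fit was run beside it. Named genes were the members, the called or nearest genes of each list, Mmp9 and the genes most like a called member. The members and lists were chosen with earlier results of these data known. Alternatives used DESeq2 1.42.0, limma 3.58.1 on log2(TPM + 0.1), other scalings, no filter, and fits without each library or mouse. Intervals of ratios and floors cover counting error only.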

Additional observations from a re-analysis of the deposited data

How the results depend on the processing

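Calls for single chemokines depended on the libraries used. Scaling by RLE factors, by library totals or without muscle genes, dropping the low-count filter, DESeq2 and limma on TPM changed no call and no direction of the 6 tested chemokines, and neither did summing near copies, an alternative chosen after seeing the data. Each scaling moved the median over all genes by less than 0.1 on the log2 scale. With the mouse as replicate block, 300 genes were higher and 588 lower, Cxcl16 had a log2 fold change of 0.83 and Ccl27a of -0.95 (neither past the threshold), 0 of the chemokines and 1 of their near copies were lower, and 0 signalling genes were higher. The block moved no other count of a gene list by over 1.5 times.

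DESeq2 called 1351 genes higher, with 6 genes of the cytokine list and 3 signalling genes higher and 3 other chemokines lower. Limma on TPM called 666 genes lower, 1 other chemokine lower and 0 signalling genes higher, and 0 signalling genes were higher without the low-count filter.

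Leaving out 1 library gave 23 to 1197 genes higher and 117 to 1041 lower. Log2 fold changes ran from 2.23 to 2.61 for Cxcl1, 0.48 to 3.20 for Cxcl2, -0.36 to 0.17 for Cxcl14 (0.17 without AEW replicate 2), 0.73 to 1.06 for Cxcl16, 2.32 to 3.27 for Ccl20 and -1.13 to -0.81 for Ccl27a. Counts of higher and lower genes ran from 0 to 3 and 0 to 1 for the 7 chemokines, 0 to 1 and 0 to 1 for receptors, 0 to 1 and 0 to 1 for other chemokines, and 0 to 8 higher for cytokines, 0 to 4 higher for signalling genes, 0 to 1 higher for proteases and 0 to 2 lower for near copies. Mmp9 ran from -0.091 (without AEW replicate 3) to 0.57.

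Leaving out a whole mouse with the block leaves 1 residual degree of freedom. Without mouse 1, 1922 genes were higher and 1588 lower, Cxcl2 had a log2 fold change of 3.56 (mouse 1 was the mouse with less Cxcl2 in its AEW cheek), and 9 other chemokines, 11 cytokine genes, 6 signalling genes and 4 proteases were higher and 3 other chemokines lower. In that fit, 1 of the 7 chemokines that the main fit did not call passed the threshold. Without mouse 2, 112 genes were higher and 279 lower, with log2 fold changes of 2.31 for Cxcl1, 0.17 for Cxcl14, 0.82 for Cxcl16, 2.72 for Ccl20, -0.73 for Ccl27a and -0.36 for Mmp9, 1 cytokine gene higher, and 0 chemokines, receptors or near copies called and 0 signalling genes higher. Without mouse 3, 0 genes were called, with 2.50 for Cxcl1, 0.66 for Cxcl16, 2.29 for Ccl20, -0.98 for Ccl27a and -0.20 for Mmp9. The cause of these shifts was not tested. Cxcl5 and Cxcl2 are limited by depth, at 8 and 61 counts over all libraries.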
